A study of Mus musculus with 2 samples.

Results

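The 37 genes of the mouse mitochondrial genome were taken from the gene tables of both ovary libraries. A gene was a member when its Ensembl identifier, with the version removed, had a mouse symbol starting with mt-. The 37 members stood among 43346 mouse genes in the tables, of which 42462 could be matched to the names used. They comprised 13 mRNA genes, 2 rRNA genes and 22 tRNA genes, all on chromosome M of the build mm10. The plus strand of the annotation carried 12 of the mRNA genes, both rRNA genes and 14 of the tRNA genes. The minus strand carried the mRNA gene mt-Nd6 and 8 tRNA genes, mt-Tq, mt-Ta, mt-Tn, mt-Tc, mt-Ty, mt-Ts1, mt-Te and mt-Tp.

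The study sequenced RNA of the whole ovary from adult female C57BL/6J mice, littermates aged 8 weeks, with no treatment and no altered allele named. It holds 1 group of 2 libraries, replicate 1 and replicate 2, so the questions the design allows are how abundant each RNA is and how far the libraries differ. The RNA had been freed of ribosomal RNA, enriched for poly(A) tails and limited to molecules over 200 nucleotides, and the stranded libraries were read as pairs of 76 bases. The labels describe biological replicates but cite the same donor record for both, so any difference between these libraries may be technical, and the p-values below cover counting error alone.

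The mitochondrial genome is a small circle that encodes core subunits of the respiratory chain complexes and of ATP synthase, with the rRNAs and tRNAs of the organelle's own ribosomes. Both strands are transcribed as long precursors, and most mRNAs and rRNAs are freed by cutting at the tRNAs that lie between them. The mRNAs then receive short poly(A) tails, which for some genes also complete the stop codon. In the ovary, the oocyte stores a large number of mitochondria, and steroid-making cells begin hormone synthesis on the inner mitochondrial membrane.

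The annotated genes lie close together, and 9 pairs of them overlap, 4 of these between mRNA genes. The largest overlaps on the same strand are shown first. The mt-Atp8 and mt-Atp6 genes, which encode subunits of ATP synthase, share 43 bases, and the mt-Nd4l and mt-Nd4 genes, which encode subunits of complex I, share 7. mt-Nd5 and mt-Nd6 overlap by 14 bases on opposite strands and mt-Atp6 and mt-Co3 by 1 base, which are not printed. Capitals mark the shared bases. All sequences are transcript sequences of GENCODE M21 on mm10. The 4 stretches lie at chrM:7910-7969, chrM:7927-7986, chrM:10114-10173 and chrM:10167-10226, all on the plus strand and all inside the coding exon of their gene.
mt-Atp8, last bases: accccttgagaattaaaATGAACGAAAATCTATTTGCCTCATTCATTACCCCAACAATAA
mt-Atp6, first bases: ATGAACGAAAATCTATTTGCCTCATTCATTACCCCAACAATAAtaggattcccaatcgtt
mt-Nd4l, last bases: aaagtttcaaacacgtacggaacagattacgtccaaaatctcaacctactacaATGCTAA
mt-Nd4, first bases: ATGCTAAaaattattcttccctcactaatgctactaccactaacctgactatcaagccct

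Of the 13 mRNA genes, mt-Co3 (784 bases), mt-Nd4 (1378 bases) and mt-Cytb (1144 bases) had a length that left 1 base after the last full codon. Their final bases are shown because the poly(A) tail, the feature these libraries were selected on, supplies the rest of such a stop codon. The capital marks the single leftover T. The stretches lie at chrM:9361-9390, chrM:11515-11544 and chrM:15259-15288.
mt-Co3, last bases: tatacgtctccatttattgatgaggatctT
mt-Nd4, last bases: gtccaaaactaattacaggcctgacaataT
mt-Cytb, last bases: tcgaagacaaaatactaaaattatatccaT

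The tRNA genes ran from 59 bases (mt-Ts2, chrM:11613-11671, which decodes serine) to 75 bases (mt-Tl1, chrM:2676-2750, which decodes leucine). Each was shorter than a single read, and the shortest and the longest are shown.
mt-Ts2: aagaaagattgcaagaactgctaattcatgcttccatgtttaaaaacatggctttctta
mt-Tl1: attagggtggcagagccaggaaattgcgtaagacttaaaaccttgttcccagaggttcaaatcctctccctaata

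Some members also have near-identical copies in the nuclear genome. On chromosome 1, 7 annotated unprocessed pseudogenes lie in a single block on the minus strand, chr1:24611535-24616197, and follow the order of mt-Co1, mt-Co2, mt-Atp6, mt-Co3, mt-Nd3, mt-Nd4l and mt-Nd4. The places where the counted copies of this block depart from the mitochondrial sequence are printed, with the differing bases in capitals. Gm29216, the copy of the end of mt-Co1, differs from it in 6 of the first 45 bases and then by no base more. Within the aligned stretch the single difference is A1066T, the mitochondrial base first, counted from 1 at the 5′ end of mt-Co1. Gm28438, the copy of mt-Nd3, differs by T3C alone, counted from the 5′ end of mt-Nd3. The mitochondrial stretches are chrM:6381-6425 and chrM:9459-9503, and those of the copies chr1:24616153-24616197 and chr1:24613075-24613119 on the minus strand.
mt-Co1: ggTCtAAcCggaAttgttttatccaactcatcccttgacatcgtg
Gm29216: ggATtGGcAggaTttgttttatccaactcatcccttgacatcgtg
mt-Nd3: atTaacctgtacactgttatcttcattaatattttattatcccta
Gm28438: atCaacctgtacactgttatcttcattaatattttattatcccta

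The authors' expected count is the estimated number of read pairs from a gene and need not be whole. Expected counts over all mouse genes came to 41124064 in replicate 1 and 34930872 in replicate 2, and ERCC spike-ins, RNAs added in known amounts, took 0.764% and 0.986% of all counts. Defining ovary markers were present, with Inha of granulosa cells at 7396 and 6279 TPM, Zp3 of the oocyte at 186 and 151 TPM and Cyp11a1 of steroid-making cells at 1342 and 1325 TPM. TPM is a level per effective length. For genes well above the mean fragment in length, that is the gene's length less the mean fragment plus 1 base. The shortest genes depart from this rule. The deposited effective lengths implied mean fragments of 228 bases in replicate 1 and 206 in replicate 2. No molecular identifiers marked the RNA molecules, so every interval, floor and SE of a ratio given here is for counting error alone.

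Mitochondrial genes took 412049 counts in replicate 1 and 178159 in replicate 2. That was 1.00% of gene counts (95% Wilson interval 0.999% to 1.01%) against 0.510% (0.508% to 0.512%), a mean of 0.756% ± 0.348 (SD, n = 2). Replicate 1 held the larger share, and the intervals did not overlap. In bulk tissue, fewer cells rich in mitochondria, less mitochondrial RNA per cell and a technical difference between the libraries cannot be told apart.

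Messenger RNA made up 99.6% of the mitochondrial counts in replicate 1 and 99.1% in replicate 2. The rRNA genes took 0.432% and 0.915%, and the tRNA genes took none. Among mRNA counts, the subunits of complex IV, the cytochrome c oxidase that reduces oxygen, took 80.0% in replicate 1 and 83.1% in replicate 2. Complex I, the NADH dehydrogenase, took 10.5% and 9.24% although 7 of the 13 mRNAs belong to it. Complex III, represented by mt-Cytb alone, took 5.99% and 4.66%, and complex V, the ATP synthase, took 3.48% and 2.98%. Of these complexes, complex IV was thus the only one with a larger share of mRNA counts in replicate 2, the library with fewer mitochondrial counts.

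**Figure D1:**
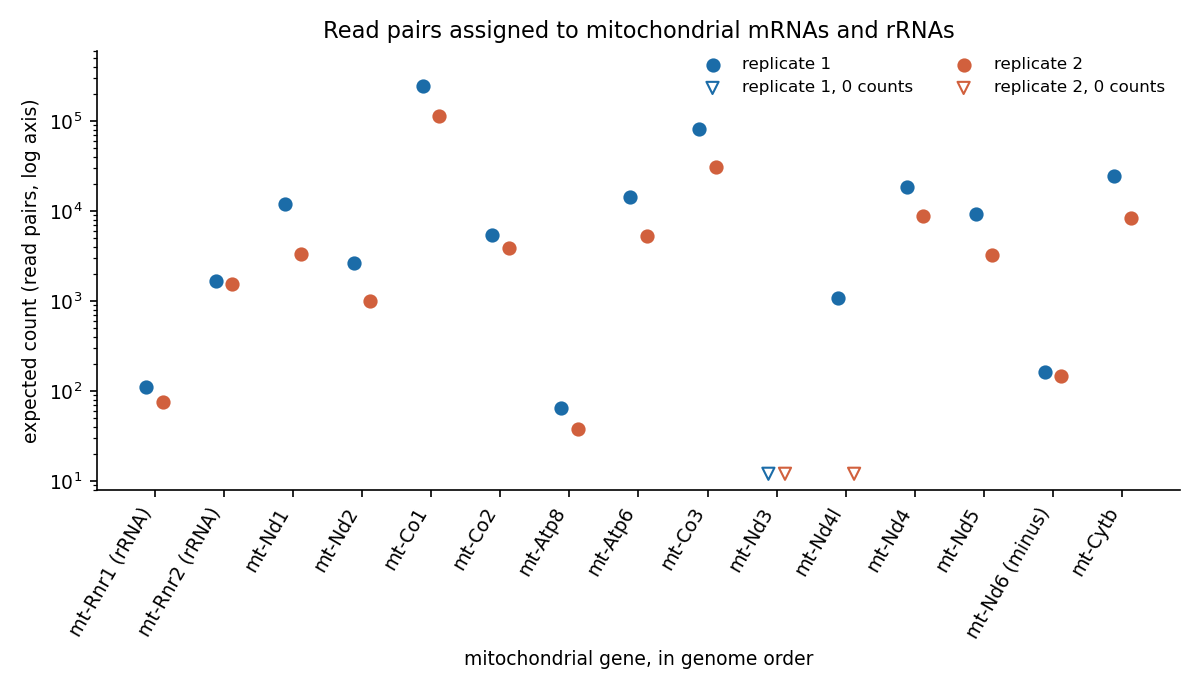
Expected counts of the 13 mitochondrial mRNA genes and 2 rRNA genes (log axis, read pairs) in genome order, with 1 point per library and open triangles for a count of 0, drawn at the foot of the axis. mt-Co1 has the most counts in both libraries (241337 and 112071), and mt-Nd3 is listed at 0 in both.

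The plot of expected counts by gene shows a range from 0 to 241337 read pairs within replicate 1. To compare genes, CPM (counts scaled to the same library total) was divided by gene length in kilobases, since the effective lengths of the shortest genes were close to 0. All levels in the next 3 paragraphs are in CPM per kilobase.

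mt-Co1, the catalytic subunit of complex IV (chrM:5328-6872), stood at 3798 in replicate 1 and 2077 in replicate 2, the highest level in both. mt-Co3, a core subunit of the same complex (chrM:8607-9390), came next at 2526 and 1124. mt-Co2, which takes electrons from cytochrome c (chrM:7013-7696), reached only 192 and 163. The 3 subunits of 1 enzyme therefore spanned a wide range, with mt-Co1 above mt-Co2 by 19.8 times in replicate 1 and 12.8 times in replicate 2. These ratios depend on how reads were split with nuclear copies. Summed with their copies, mt-Co1 stood at 4542 and 2405 and mt-Co2 at 305 and 175. mt-Cytb, the haem-bearing core of complex III (chrM:14145-15288), stood at 522 and 206. mt-Atp6, which forms the proton path of ATP synthase (chrM:7927-8607), stood at 508 and 220. mt-Cytb was the higher of these in replicate 1 and mt-Atp6 in replicate 2.

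Among complex I subunits, mt-Nd4 (chrM:10167-11544), a proton-pumping subunit, stood at 324 and 180. mt-Nd1 (chrM:2751-3707), the subunit next to the quinone site, stood at 302 and 98.1. mt-Nd5 (chrM:11742-13565), another pumping subunit, stood at 122 and 50.1, and mt-Nd2 (chrM:3914-4951), also of that kind, at 62.2 and 27.8. All 4 were lower in replicate 2. mt-Nd6 (chrM:13552-14070), a small membrane subunit and the only mRNA of the minus strand, stood at 7.64 and 8.05, about the same in both. mt-Rnr2, the rRNA of the large mitochondrial ribosomal subunit (chrM:1094-2675), stood at 25.7 and 28.1, and mt-Rnr1, that of the small subunit (chrM:70-1024), at 2.80 and 2.28.

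Ordered by mean level, the 14 genes with counts gave 13 neighbouring pairs. In 4 pairs the means differed by more than the larger SD of the pair: mt-Co3 above mt-Cytb, mt-Co2 above mt-Nd5, mt-Rnr2 above mt-Nd6 and mt-Atp8 above mt-Rnr1. In the other 9 pairs the means differed by less than that SD, among them mt-Cytb at 364 ± 224 and mt-Atp6 at 364 ± 203 (SD, n = 2). The SD includes the difference between libraries that both genes of a pair can share, so it does not test their order within a library. Some of the 9 kept the same order in both libraries, such as mt-Co1 above mt-Co3, and others, such as mt-Cytb and mt-Atp6, did not. Both rRNAs, which in cells outnumber the mRNAs, ranked in the lower part of the order in these rRNA-depleted libraries. There was 9.17 times as much mt-Rnr2 as mt-Rnr1 per kilobase in replicate 1 and 12.4 times in replicate 2.

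Replicate 2 over replicate 1 was then compared gene by gene, as log2 ratios of counts scaled by TMM, a scaling that centres the bulk of genes. The comparison covered 15939 genes whose counts averaged 20 or more, among them 12 of the 13 mitochondrial mRNAs (mt-Nd3 had 0 counts) and both rRNAs. With 1 library on each side no spread could be estimated, so an exact binomial test compared the reads of these libraries, not conditions. Over 2-fold lower in replicate 2 were 7 of the 12 mRNAs, where 1.71% of all genes tested were, and none of the 12 was over 2-fold higher, where 2.28% were. The 7 include mt-Nd4l, whose 0 counts in replicate 2 are uncertain. They also include mt-Co3, which was less than 2-fold lower when summed with its nuclear copy (-0.81). By the exact binomial test 10 of 12 were lower, where 27% of all genes were, and 0 were higher, where 29.1% were. The median log2 ratio of the 12 was -1.10, and that of all genes tested was -0.01, with the 5th percentile at -0.66 and the 95th at 0.76.

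mt-Nd1 had 11893 counts in replicate 1 and 3280 in replicate 2, a log2 ratio of -1.56 (counting SE 0.03). mt-Cytb had 24570 and 8222, a ratio of -1.28 (SE 0.02). mt-Nd5 had 9115 and 3191, a ratio of -1.21 (SE 0.03). In linear terms these 3 were 2.95-fold, 2.43-fold and 2.32-fold lower in replicate 2. mt-Atp6 had 14214 and 5231 counts (-1.14, SE 0.02), mt-Co3 had 81447 and 30772 (-1.11, SE 0.01), and mt-Nd2 had 2657 and 1007 (-1.10, SE 0.05). mt-Co1 had 241337 and 112071 (-0.81, SE 0.01), and mt-Nd4 had 18344 and 8680 (-0.78, SE 0.02). These 5 lay between 1.72-fold and 2.21-fold lower, so all 8 genes stood below the 5th percentile of all genes. Among genes with a mean count of 1000 to 10000, 0.337% of 6238 were over 2-fold lower, and among those above 10000, 0.591% of 677 were. Those shares include the members themselves, with mt-Nd1, mt-Nd2, mt-Nd5 and mt-Atp6 among 21 such genes and mt-Co3 and mt-Cytb among 4. The shares also include nuclear copies, with Gm28661 (-3.11) among the 21 and Gm29216 (-1.11) among the 4.

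**Figure D2:**
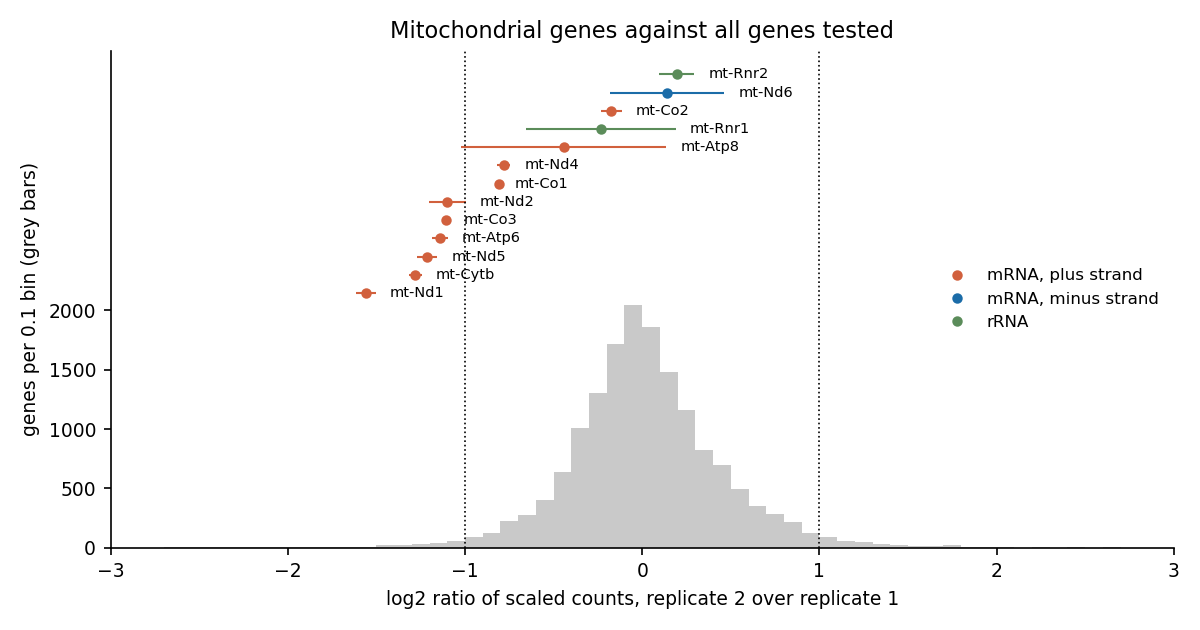
Log2 ratios of TMM-scaled counts, replicate 2 over replicate 1, for all genes tested (grey bars) and for mitochondrial genes (points with 95% counting intervals, placed in order and at no meaning of height). Dotted lines mark a 2-fold difference, 8 mRNAs lie between -1.56 and -0.78, mt-Nd6 and mt-Rnr2 lie just above 0, and mt-Nd4l, with 0 counts in replicate 2, is not drawn.

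The plot of ratios against all genes also shows mRNAs with smaller ratios. mt-Co2 had 5402 and 3890 counts, a log2 ratio of -0.17 (SE 0.03, adjusted p = 3.4e-08 by the exact binomial test). Its value depends on how reads were split with an identical nuclear copy, and was -0.64 by posterior mean counts and -0.74 summed with copies. mt-Atp8, a small ATP synthase subunit, had 64 and 38 counts (-0.44, SE 0.30, exact binomial adjusted p = 0.199). mt-Nd6 had 163 and 146 counts (0.14, SE 0.16, exact binomial adjusted p = 0.487). For mt-Atp8 and mt-Nd6 the difference could not be detected at this depth, with counting intervals of -1.02 to 0.14 and -0.18 to 0.46. The interval of mt-Nd6 lay apart from the ratios of all 8 genes above, while that of mt-Atp8 held those of mt-Co1 and mt-Nd4.

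The rRNAs also stood apart from most mRNAs. mt-Rnr1 had 110 and 76 counts (-0.23, SE 0.22, exact binomial adjusted p = 0.393), and mt-Rnr2 had 1671 and 1555 (0.20, SE 0.05, exact binomial adjusted p = 0.000358). As a share of all gene counts the rRNAs took 0.00433% in replicate 1 and 0.00467% in replicate 2. When the libraries were scaled to the spike-ins instead, the median of all genes moved to -0.44, the mRNA median to -1.54, mt-Rnr2 to -0.24 and mt-Nd6 to -0.29. The direction of mt-Rnr2 and mt-Nd6 therefore held only relative to the bulk of genes, and relative to that bulk the mRNA median was lower under either scaling. The SD of the log2 ratio over 11 mRNAs, without mt-Nd4l, was 0.51.

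Strand shares differed between the libraries. The annotated genes of the minus strand held 163 of 412049 mitochondrial counts in replicate 1, 0.0396% (95% Wilson interval 0.0339% to 0.0461%). They held 146 of 178159 in replicate 2, 0.0819% (0.0697% to 0.0964%). All of these counts were of mt-Nd6, since the 8 minus-strand tRNAs had none. Reads from the minus strand outside annotated genes are not in these counts, so the shares describe mt-Nd6 and not all RNA of that strand. mt-Nd5, which overlaps the end of mt-Nd6 on the opposite strand, was 15.9 times its level per kilobase in replicate 1 and 6.22 times in replicate 2.

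The shortest genes were the ones where count and TPM parted. mt-Atp8 (chrM:7766-7969, 204 bases) was shorter than the mean fragment of either library. Its effective length was deposited as 0 bases in replicate 1 and 6.38 in replicate 2. The 64 counts of replicate 1 were accordingly given a TPM of 0 and the 38 counts of replicate 2 a TPM of 242, so TPM ranked the libraries the opposite way to counts. The RNA that carries mt-Atp8 is known to carry mt-Atp6 as well, yet mt-Atp6 had 66.5 times its counts per kilobase in replicate 1 and 41.2 times in replicate 2. mt-Nd4l (chrM:9877-10173, 297 bases) had effective lengths of 69.8 and 92.1 bases, and mt-Nd3 (chrM:9459-9806, 348 bases) had 121 and 143.

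All 22 tRNA genes had an effective length of 0, an expected count of 0 and a posterior mean count of 0 in both libraries. The same held for the counts of every other gene below 76 bases, 0 of 888 genes having any in either library. Of 5223 genes of at least 76 and below 204 bases, 8 had counts in replicate 1 and 29 in replicate 2. The tRNAs are therefore listed at 0, with no limit on their level that these values could set.

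Near-identical nuclear copies affected a different set of members. A search of annotated nuclear transcripts for stretches of at least 100 bases at 90% identity or more found 15 copies, of which 7 had counts. Together the copies held 65641 counts in replicate 1 and 31815 in replicate 2, which is 13.7% and 15.2% of the counts of mitochondrial genes and copies combined. The block on chromosome 1 held 65633 and 31813 of them. With the copies added, the mitochondrial share of gene counts was 1.16% and 0.601%, still higher in replicate 1.

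The share of a gene's 76-base windows that also occur in a nuclear transcript measures how far single reads can be told apart. It was 99.9% for mt-Co3, 99.5% for mt-Co2 and for mt-Atp6, 98.6% for mt-Nd4l and 97.8% for mt-Nd3. It was 61.5% for mt-Nd4, 39.4% for mt-Co1, 5.61% for mt-Nd2 and 1.54% for mt-Nd5. No window was shared for mt-Nd1, mt-Cytb, mt-Atp8, mt-Nd6, mt-Rnr1 or mt-Rnr2. Of these, mt-Cytb and mt-Nd6 each had a less similar copy in the search above, without counts. The gene with the largest drop that had counts in both libraries, mt-Nd1, had no copy in that search. Counts of the genes with a high shared fraction are uncertain between gene and copy.

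Gm29216 (99.8% identical to mt-Co1 over 483 bases) had 47239 counts in replicate 1 and 17728 in replicate 2. Gm28437, identical to mt-Co3 over 783 bases, had 7716 and 10623, and so was higher in replicate 2. Gm10222, identical to mt-Nd4l over 294 bases, had 7023 and 3060. Thus for mt-Nd4l the copy took 86.9% of the summed counts in replicate 1 and 100% in replicate 2. Gm28661, identical to mt-Co2 over 681 bases, had 3179 and 298. Gm28438, the copy of mt-Nd3, had 475 and 104 where mt-Nd3 itself had 0 and 0. Gm10925, named here after its values were seen, is identical to mt-Atp6 over 678 bases and was given 0 counts in both. Identical sequence was thus split in opposite ways, all to the mitochondrial gene for mt-Atp6 and mostly to the copy for mt-Nd4l.

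The deposited posterior mean counts, a second estimate with its own SD, divided the same reads differently. mt-Co3 had a posterior mean of 58301 ± 12500 (posterior SD) in replicate 1 and 21429 ± 7859 in replicate 2, below its expected counts of 81447 and 30772. mt-Co2 had 6102 ± 723 and 3179 ± 586, against expected counts of 5402 and 3890. mt-Nd4l had 1151 ± 232 and 119 ± 158, and mt-Nd3 had 43.3 ± 38.8 and 31.0 ± 25.03. The single 0 of mt-Nd4l lay within 1 posterior SD of 119, so its fall to 0 was not distinguishable from a smaller one. No fold is given from the expected counts of mt-Nd4l alone, and the posterior means gave a log2 ratio of -2.97.

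**Figure D3:**
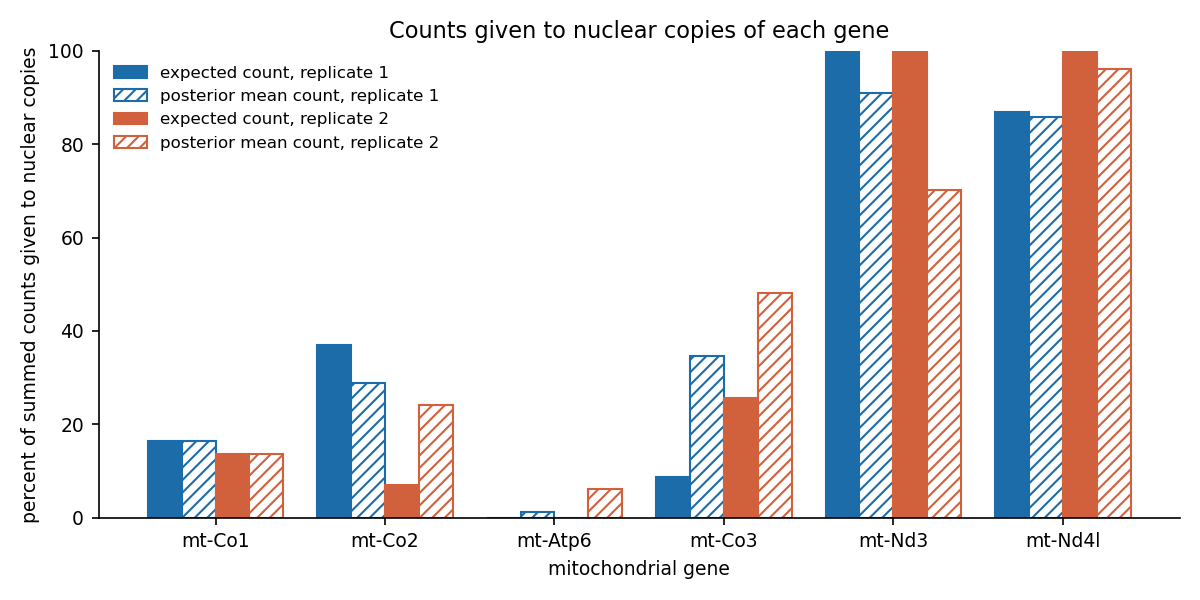
Percent of the summed counts of each gene and its nuclear copies that was given to the copies, by expected count (filled bars) and posterior mean count (hatched bars) in each library. For mt-Co2 the expected counts give 37.1% and 7.14% where the posterior means give 28.9% and 24.1%, and for mt-Nd3 and mt-Nd4l most counts went to the copy under both.

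As the plot of shares given to copies shows, the expected counts of mt-Co2 went to the copy for 37.1% in replicate 1 and 7.14% in replicate 2, and by posterior means for 28.9% and 24.1%. For mt-Co3 the expected counts gave 8.65% and 25.7%, and the posterior means 34.6% and 48.2%. For mt-Co1, where a larger stretch is the gene's own, both estimates gave 16.4% in replicate 1, and they gave 13.7% and 13.6% in replicate 2. The sum of gene and copies was the same under both estimates for every gene, to the whole count.

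Summing gene and copies therefore removed the dependence on the estimate. mt-Co2 with its copies had 8587 and 4189 counts, a log2 ratio of -0.74 (SE 0.03) in place of -0.17. mt-Co3 with its copy had 89163 and 41395, a ratio of -0.81 (SE 0.01) in place of -1.11. mt-Co1 with its copies had 288578 and 129800, a ratio of -0.85. On the sums the 3 subunits of complex IV thus lay between -0.85 and -0.74, where on their own they ranged from -1.11 to -0.17. mt-Nd4l with its copy had 8086 and 3060 counts, a ratio of -1.10 (SE 0.03), and mt-Nd3 with its copy had 475 and 104, a ratio of -1.88 (SE 0.16). On the sums 7 of 13 mRNAs were over 2-fold lower, where 1.71% of all genes tested without summing were. These 7 held mt-Nd3 in place of mt-Co3, so they were not the same set as without summing. By the exact binomial test 11 of 13 were lower, where 27% of all genes tested without summing were, with mt-Atp8 and mt-Nd6 the exceptions.

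**Figure D4:**
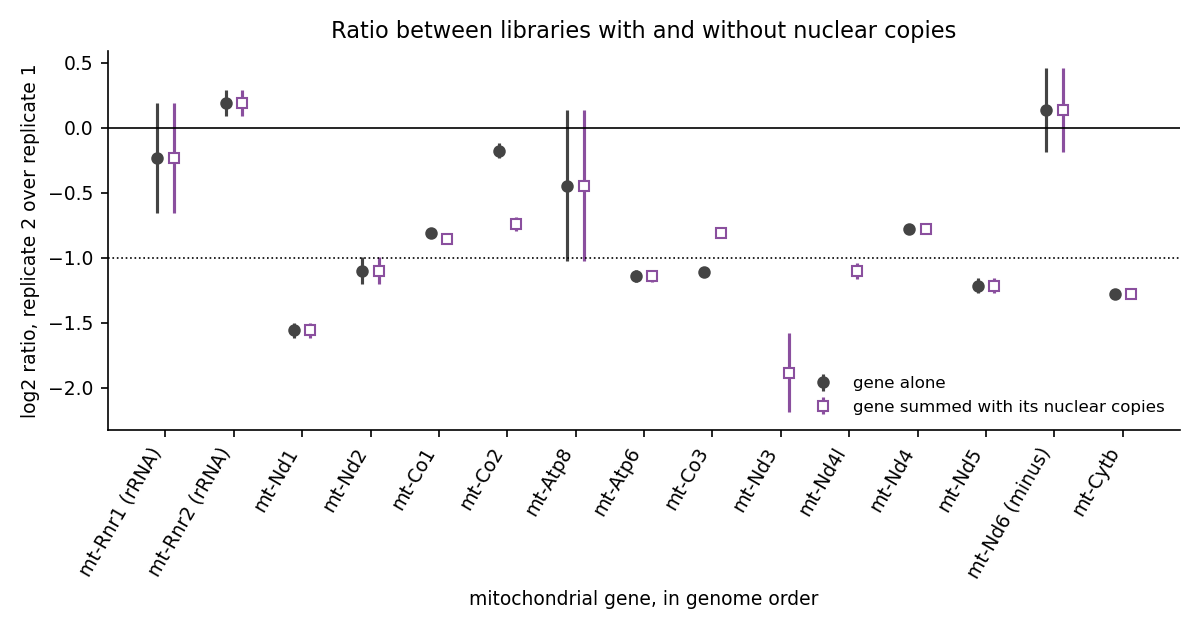
Log2 ratio of scaled counts, replicate 2 over replicate 1, for each gene alone (filled circles) and summed with its nuclear copies (open squares), with 95% counting intervals and a dotted line at a 2-fold difference. Summing brings mt-Co2 from -0.17 to -0.74 and mt-Co3 from -1.11 to -0.81, and gives mt-Nd3 (-1.88) and mt-Nd4l (-1.10) a ratio, while genes without counted copies keep theirs.

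The plot of ratios with and without copies shows the genes concerned, and the sums also changed their order by level. mt-Nd4l with its copy reached 662 CPM per kilobase in replicate 1 and 295 in replicate 2, behind only mt-Co1 and mt-Co3 in both. mt-Nd4, which is known to share an RNA with mt-Nd4l, then stood at 0.489 and 0.611 times its level. mt-Nd3 with its copy reached 33.2 and 8.56.

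The authors' deposited contigs, stretches covered by reads on the older build mm9, held 12 on chromosome M among 667197. Of these, 11 lay on the plus strand and covered 12467 bases, with authors' signal from 0.102 to 1880. The contig at chrM:5028-6796 of mm9 had the signal of 1880, rank 7 of all contigs, where the median was 0.237. The minus strand had 1 contig of 2074 bases, chrM:11996-14069 of mm9, with a signal of 4.62. Between 6796 and 10814 of mm9 the 4 contigs had signals of 0.102 to 0.137, while those on either side had 1880 and 365. How the contigs treated reads that match several places is not given. The low signals there therefore cannot be read as little RNA. These coordinates were not joined to the genes above, which are on mm10.

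Nuclear genes that serve the mitochondrial genome were described from lists, by the same ratio. Of 14 tested genes of mitochondrial transcription and replication, 0 were over 2-fold lower (1.71% of all genes tested) or higher (2.28%). By the exact binomial test 3 were lower (27% of all genes) and 7 higher (29.1%), with a median log2 ratio of 0.13. Polrmt, the mitochondrial RNA polymerase, had 80.5 TPM in replicate 1 and 86.4 in replicate 2 (log2 ratio 0.16). Polg, the DNA polymerase, had 68.5 and 66.5 TPM (0.24), and Mterf3, a transcription factor family member, had 331 and 303 (0.09). Mterf3 had only 363 and 315 counts, against 5667 and 5145 for Polrmt, so TPM placed it above Polrmt and counts below. For Polg and Mterf3 the TPM was lower in replicate 2 while the ratio of scaled counts was above 0. The extremes were Mterf1a at 0.85, on 39 and 58 counts, and Tfb1m at -0.76, on 30 and 14.

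Of 19 tested genes of mitochondrial RNA processing, tailing and stability, 0 were over 2-fold lower or higher, against 1.71% and 2.28% of all genes. By the exact binomial test 3 were lower and 6 higher, against 27% and 29.1% of all genes. Their median log2 ratio was 0.0039. Fastk, a mitochondrial RNA-binding protein, had 266 and 293 TPM, Tbrg4, of the same family, 127 and 128, and Hsd17b10, a subunit of the mitochondrial RNase P, 87.9 and 74.1. Grsf1, which binds RNA in mitochondrial granules, had the largest ratio (0.71) and Fastkd5, needed for mRNA processing at sites without a tRNA, the smallest (-0.58). The median of neither list lay near the -1.10 of the mitochondrial mRNAs.

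The nuclear genes for subunits of the same complexes were 73, of which 70 were tested. Over 2-fold lower were 3 of the 70 and over 2-fold higher were 3, where all genes gave 1.71% and 2.28%. By the exact binomial test 38 were lower and 21 higher, where all genes gave 27% and 29.1%, and the median log2 ratio was -0.11. For complex I the median over 35 genes was -0.14, with Ndufab1, the acyl carrier protein, at 396 and 1257 TPM (1.51) and Ndufa1 at 182 and 82.3 TPM (-0.95). Ndufb8 had 774 and 684 TPM and Ndufs7 706 and 728. For complex III the median over 9 genes was 0.02, from Uqcrb at -1.66 on 57 and 14 counts to Uqcrfs1, the Rieske iron-sulfur subunit, at 0.98. Uqcr11, its most abundant member, had 1792 and 1445 TPM, the core subunit Uqcrc1 had 609 and 693, and Uqcrq had 504 and 482.

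For complex IV the median over 11 nuclear genes was -0.13, with 9 lower and 2 higher by the exact binomial test (27% and 29.1% of all genes). Cox7b was the lowest at -1.24, with 148 and 60.02 TPM, and Cox5a the highest at 0.80, with 596 and 967 TPM. Cox6a1, the most abundant, had 3675 and 3170 TPM, followed by Cox8a at 2595 and 2261. For complex V the median over 15 genes was 0.02, from Atp5h at -1.07 to Atp5e at 1.04, and Atp5b, the catalytic beta subunit, had 4205 and 3775 TPM. Atp5d, the delta subunit, had 1545 and 2986 TPM, and Atp5a1, the alpha subunit, had 1515 and 1291. No nuclear subunit list had a median lower than -0.14.

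Other RNAs and cell types also differed between the libraries. Of 9 RNAs that lack a long poly(A) tail, 7 were higher and 2 lower in replicate 2 by the exact binomial test (29.1% and 27% of all genes), with a median log2 ratio of 0.41. Rn7s1 and Rn7s2 had identical counts, so they are 1 signal listed under both names. Rn7sk, a regulator of transcription elongation, had 29117 and 24895 TPM, Rmrp, the RNA of RNase MRP, 6579 and 5848, and Rn7s1, of the signal recognition particle, 5694 and 5656. These TPM values, and the summed TPM of the list (49983 and 43838), were lower in replicate 2, opposite to the ratios of scaled counts. The extremes were the histone gene Hist1h2ab at 0.96 and Rpph1, the RNA of nuclear RNase P, at -0.45. All 5 red blood cell markers were higher in replicate 2 (29.1% of all genes were), with a median of 0.91 and a summed level of 1085 against 2254 TPM. All 5 epithelial markers were higher (median 0.54, summed 615 and 829 TPM), as were all 4 adipocyte markers (median 0.36, summed 3152 and 4026 TPM). Granulosa markers had a median of 0.02, oocyte markers -0.27, steroid-making cell markers -0.32 and smooth muscle markers -0.01. The 4 markers of muscle, heart and brown fat, tissues rich in mitochondria, summed to 5.37 TPM in replicate 1 and 3.99 in replicate 2, and Ucp1 was at 0.10 and 0.06 TPM. No marker of these lists was at 0 in both libraries, and the part of any of them in the mitochondrial result was not tested.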

How the data were processed

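Per the file headers and labels, the authors deposited 1 gene table and 1 transcript table per library on mm10 with GENCODE M4 genes. For the aligner and the quantifier, names are not given in the sources here. Expected counts and posterior mean counts (estimated counts of read pairs, the latter with a posterior SD), effective length and TPM are as the authors deposited them. On mm9 the authors deposited junctions with a read count and contigs with a signal, whose making and normalization are not given. Symbols and coordinates came from GENCODE M21, on mm10. All 37 members had 1 transcript, with the same count in both tables and the same length as in M21.

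Expected counts were rounded. TMM scaling (edgeR 4.0.16 under R 4.3.3) used genes whose counts averaged 20 or more, and log2 ratios had a prior count of 1. edgeR's quasi-likelihood test has no residual degrees of freedom here. A two-sided exact binomial test with Benjamini-Hochberg adjustment at 0.05 over all genes tested was therefore used. It compares the reads of these libraries. Its check on simulated data drew counts with counting error alone, so that check does not cover other spread between libraries. Spike-ins were left out of library sizes. A count of 0 allows 3 counts, 0.0729 CPM in replicate 1 and 0.0859 in replicate 2. Nuclear copies were found with blastn 2.17.0, and shared windows by exact match over 126428 nuclear transcripts. Other steps used Python 3.11.15, pandas 2.3.3, numpy 2.4.6, scipy 1.17.1 and matplotlib 3.10.9. Alternatives were DESeq2 1.42.0 size factors, total counts, spike-in scaling, TMM over nuclear genes, posterior means, other filters and a prior count of 5, sums with copies, log2(TPM + 1) and leaving out each library.

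The members and lists were chosen with earlier results of these data known. Named by rule were all mRNA and rRNA genes, any tRNA gene with counts, the 5 nuclear copies with most counts, and of each list of nuclear genes the 3 with the highest TPM and those with the largest and smallest ratio.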

Additional observations from a re-analysis of the deposited data

How the results depend on the processing

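The median log2 ratio of the mitochondrial mRNAs was -1.17 with scaling by total gene counts, -1.18 on log2(TPM + 1) and -1.54 with spike-in scaling, which moved the median of all genes to -0.44. Over 10 alternatives it ranged from -1.54 to -1.10. The number of mRNAs over 2-fold lower was 7 in 9 alternatives and 9 with spike-in scaling, which lowered the ratios of all genes. On the sums with copies the 7 held mt-Nd3 in place of mt-Co3. Under the main scaling 1.71% of all genes tested were over 2-fold lower, and that share was not taken under the alternatives. The SD of the ratios was 0.758 with posterior mean counts, over 13 genes. As a share of TPM, mitochondrial genes averaged 1.17% and mt-Nd6 0.185% of the mitochondrial total. With spike-in scaling mt-Rnr2 turned from 0.20 to -0.24. On log2(TPM + 1) mt-Atp8 came to 7.93, from a TPM of 0 to 242. For single genes, 85 of 128 values under an alternative stayed within their counting error, 40 moved beyond it with the same sign, and 3 changed sign. The 3 were mt-Rnr2 and mt-Nd6 (0.14 to -0.29) with spike-in scaling, and mt-Atp8 on log2(TPM + 1). Leaving out a library left the mitochondrial share at 0.510% or 1.00% and the minus-strand share at 0.0396% or 0.0819%. The cause of these changes was not tested. No paired analysis was possible because the series has 1 group of 2 libraries, with nothing to pair. With 1 library on each side, no ratio has a replicate check. Depth limits mt-Atp8, mt-Nd6 and mt-Rnr1, each under 200 counts.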

Other observations

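The authors' deposited junctions on mm9 held 126 on chromosome M among 438382, with 271 of 27636523 junction reads, 0.000981%. Of these, 124 lay on the plus strand and 2 on the minus strand. A single read supported 95 of the 126, and 4 had at least 10 reads, the most being 54. Their spans ran from 31 to 10139 bases, with a median of 116. No source states how the junctions were filtered, and mitochondrial genes are not known to be spliced in mammals, so these values are given without a reading.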
